A study of Mus musculus with 20 samples.

Results

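The CC chemokine genes Ccl2, Ccl3, Ccl4, Ccl6, Ccl7, Ccl8, Ccl9, Ccl20, Ccl25 and Ccl28 were followed in the colon of 20 mice. These 10 genes were chosen by name out of 32991 genes with at least 1 annotated transcript in the data, and the level of a gene in a mouse was the sum of the FPKM (fragments per kilobase of transcript, scaled to the depth of the library) of its Ensembl transcripts. Each of the 4 groups held 5 mice with 1 RNA library per mouse. Control mice received double distilled water by gavage for 91 days. Mice of the PZH group received PZH, the herbal and animal-derived formula Pien Tze Huang of Chinese medicine, at 250 mg/kg/d for the same 91 days. Mice of the AOM/DSS group, labelled Model, received water by gavage. They also had an intraperitoneal injection of the carcinogen azoxymethane (AOM, 12.5 mg/kg) on the first day and, starting 7 days later, 4 cycles of 2% dextran sulfate sodium (DSS) in the drinking water, each of 5 days and followed by 2 weeks of normal water. AOM together with DSS is a chemical model of colitis-associated cancer. The PZH + AOM/DSS group, labelled Model + PZH, had the same AOM and DSS together with 250 mg/kg/d PZH. The mice were male C57BL/6 animals, and neither the labels nor the methods state whether tumour or neighbouring mucosa was taken from the AOM/DSS mice.

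CC chemokines are small secreted proteins that share a pair of neighbouring cysteines near their start. They bind receptors of the CCR family on leukocytes and draw these cells along a gradient. In the intestine, some are made by the epithelium at rest, such as CCL28 and CCL25, which attract plasma cells and lymphocytes that home to the mucosa, and CCL20, which attracts cells bearing CCR6 to lymphoid follicles. Others are made mainly by myeloid and stromal cells during inflammation, such as CCL2 and CCL7 for monocytes and CCL3 and CCL4 for monocytes and T cells.

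The cysteine pair that names the family stands in the middle of the 30 coding bases given here for 9 of the 10 genes, from GENCODE M21 on GRCm38, with the codons of both cysteines in capitals. They are shown because the genes are recognised as one family by this pair, while the bases beside it tell them apart.
Ccl4: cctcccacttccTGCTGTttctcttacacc
Ccl6: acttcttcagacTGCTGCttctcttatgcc
Ccl9: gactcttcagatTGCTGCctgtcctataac
Ccl2: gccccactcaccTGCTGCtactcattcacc
Ccl7: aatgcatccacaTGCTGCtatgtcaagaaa
Ccl8: gctccagtcaccTGCTGCtttcatgtacta
Ccl20: agcaactacgacTGTTGCctctcgtacata
Ccl25: gcctttgaagacTGCTGCctgggttaccag
Ccl28: atggcctccagcTGTTGCactgaggtgtct
The first cysteine was codon 30 of the coding sequence in Ccl25 and Ccl28, codon 34 in Ccl2 and Ccl4, codon 50 in Ccl6 and codon 57 in Ccl9, which has the longest stretch before the pair. Over the whole coding sequence, Ccl3 and Ccl4 were identical at 68.42% of 285 aligned bases, Ccl6 and Ccl9 at 65.07% of 375, and Ccl7 and Ccl8 at 64.09% of 298. These 3 pairs were the most alike, and Ccl3 and Ccl25 were the least alike, at 41.74%. No pair was near identical.

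On GRCm38, 7 of the genes lie on chromosome 11. Ccl2 (chr11:82035571-82037453), Ccl7 (chr11:82045712-82047525) and Ccl8 (chr11:82115185-82116799) lie in this order on the plus strand. Further along lie Ccl9 (chr11:83572919-83578636) and Ccl6 (chr11:83587882-83593087) on the minus strand, then Ccl3 (chr11:83647844-83649355, minus strand) and Ccl4 (chr11:83662584-83664683, plus strand). The others stand alone. Ccl20 lies on chromosome 1 (chr1:83116766-83119167), Ccl25 on chromosome 8 (chr8:4325210-4360020) and Ccl28 on chromosome 13 (chr13:119623819-119654359), all on the plus strand.

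The depth of each library, estimated from the steps in which its low values fall, was 15.3 to 19.4 M fragments, with group medians of 16.27 (PZH) to 17.05 M (Control). The labelled tissue was checked against its markers, since the extraction protocol names the abdominal aorta while the tissue label names the colon. Colon epithelium genes were high in every mouse. Without Epcam, the summed FPKM of 9 such genes was 3862 to 5038 in Control mice and 2211 to 3553 in AOM/DSS mice. Epcam, an epithelial surface gene, was listed at 0 in 13 of 20 mice, so a 0 in these data can be a failed estimate and is given as "listed at 0". This bears on Ccl3 and Ccl4, for which values are given per mouse.

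The 10 genes differed widely in level. FPKM is scaled by transcript length, so levels of different genes were compared on it. Ccl6 was the most abundant in all 4 groups. It made up on average 53.8% of the summed FPKM of the 10 genes in Control mice, 56.8% in PZH mice, 61.6% in AOM/DSS mice and 55.6% in PZH + AOM/DSS mice. Ccl28 was second in the Control group (25.5%) and the PZH group (25.7%), and the ranges of Ccl6 and Ccl28 did overlap in the Control group. Ccl28 made up 10.9% in AOM/DSS mice and 13.3% with PZH added, and in both its range overlapped that of Ccl8, which was above it in 3 and 4 of the 5 mice. Ccl20 followed in every group, and its range overlapped that of the next gene. Ccl9, Ccl25, Ccl7 and Ccl2 came next, in an order that differed between groups. Ccl9, Ccl25 and Ccl7 each overlapped the gene after them in every group, whereas all Control and PZH mice had more Ccl2 than any mouse of their group had of the gene after it. Ccl3 and Ccl4 were the lowest in every group. The sum over the 10 genes was 248 ± 66.6 FPKM in Control mice, 278 ± 26.9 in PZH mice, 281 ± 31.8 in AOM/DSS mice and 281 ± 23.6 in PZH + AOM/DSS mice (mean ± SD, n = 5 each), with ranges that overlapped.

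**Figure D1:**
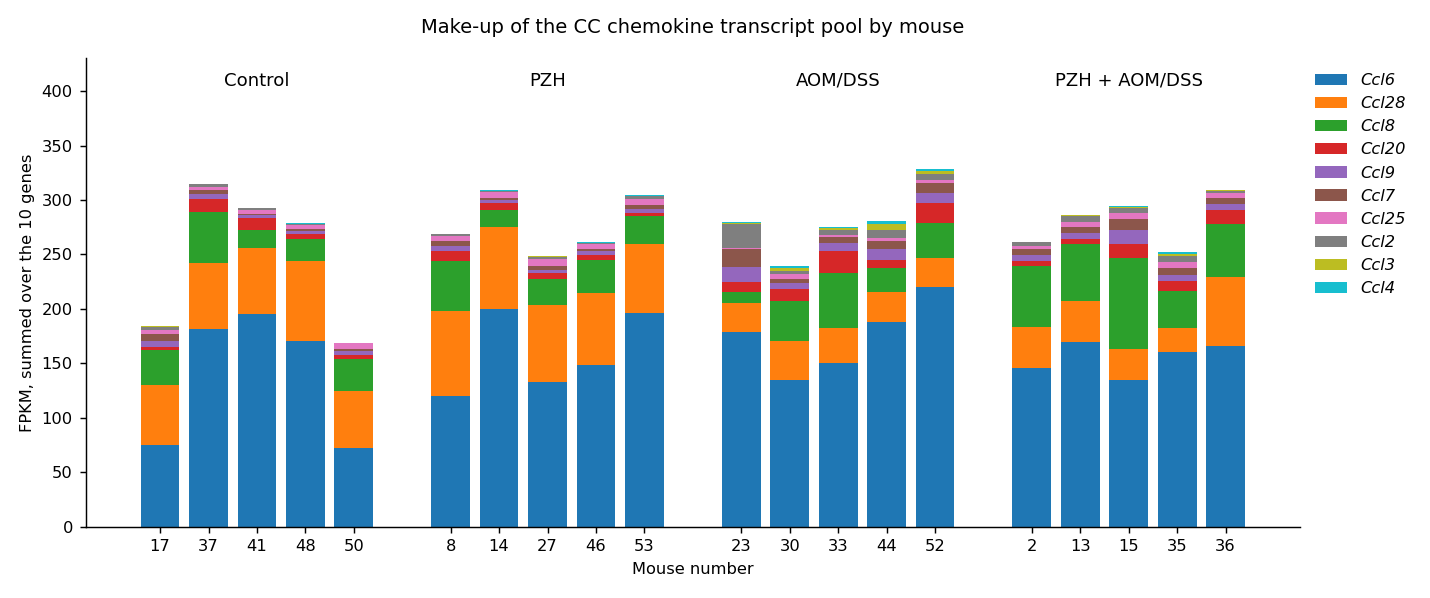
Stacked bars give the FPKM of the 10 CC chemokine genes (y axis) in each mouse, with mouse numbers on the x axis and the 4 groups side by side. Ccl6 is the largest part of every bar, and the Ccl28 share is 25.5% on average in Control mice against 10.9% in AOM/DSS mice.

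Compared with the Control group, 6 of the 10 genes differed in the AOM/DSS group at an adjusted P under 0.05 (limma on log2(FPKM + 1), Benjamini-Hochberg adjustment over all 15812 genes tested). Ccl2, Ccl3, Ccl4, Ccl7 and Ccl9 rose, and Ccl28 fell. Of all genes tested, 16.4% rose and 7.23% fell by the same rule. The median log2 fold change of the 10 genes was 1.03, against 0.09 over all genes tested. By the criteria used in the study, an unadjusted P under 0.05 together with more than a 2-fold change, 6 genes were higher (Ccl2, Ccl3, Ccl4, Ccl7, Ccl9 and Ccl20) and 5.85% of all genes were. The values of AOM/DSS and Control mice did not overlap for Ccl3, Ccl4 and Ccl9, all higher, as in 13% of all genes, and for Ccl28, lower, as in 5.43% of all genes. The groups consist of separate mice, so these P values set the difference between group means against the spread between mice. In bulk tissue, fewer cells of a type and less RNA per cell cannot be told apart.

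**Figure D2:**
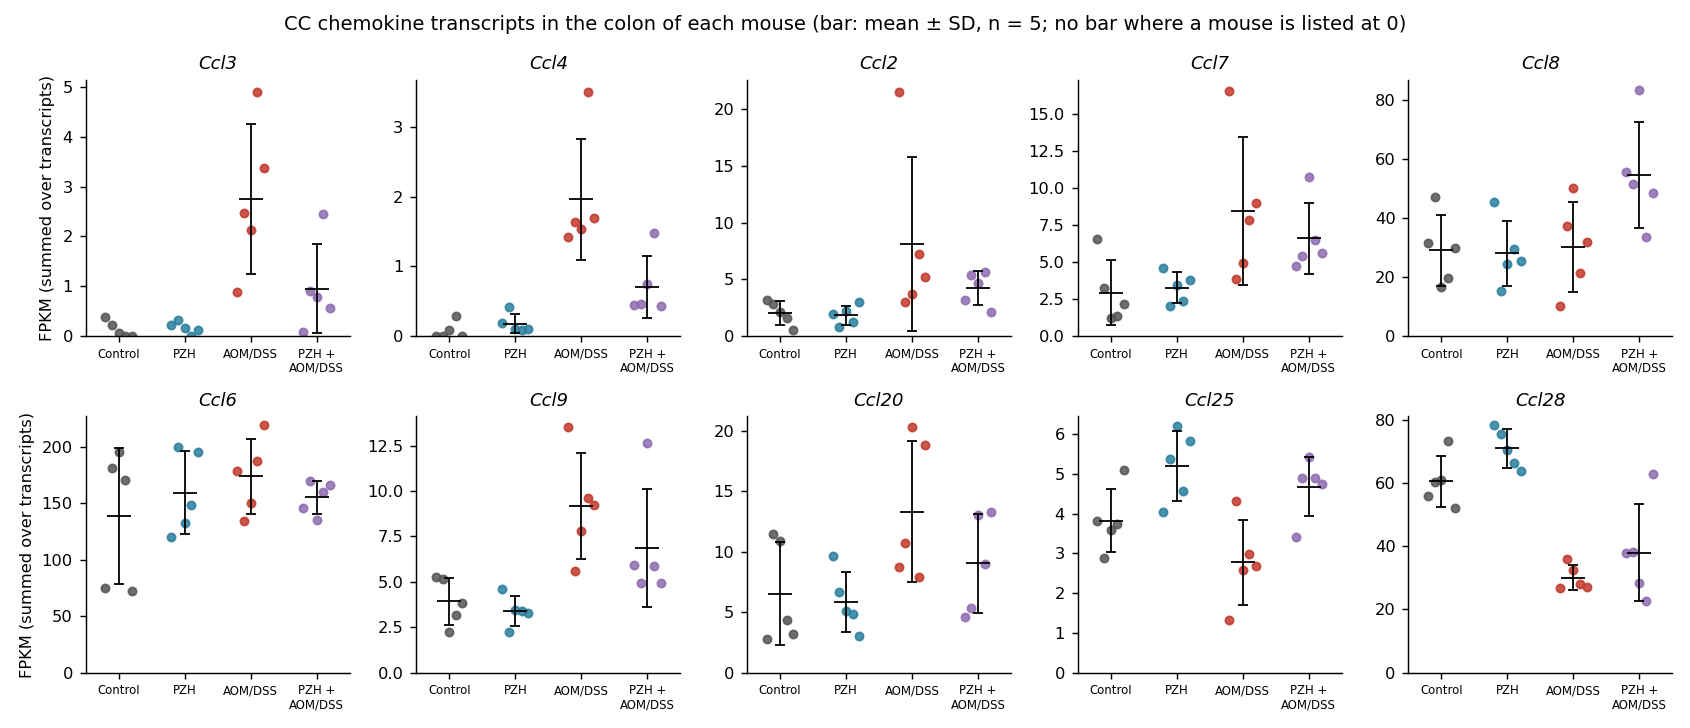
Each panel gives the FPKM of 1 gene (y axis, from 0) in every mouse of the 4 groups (x axis), with bars at the mean ± SD of 5 mice and no bar where a mouse is listed at 0. AOM/DSS mice lie above all Control mice for Ccl3, Ccl4 and Ccl9 and below all of them for Ccl28.

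Ccl3 and Ccl4 encode inflammatory chemokines of macrophages and lymphocytes, and CCL3 binds CCR1. Ccl3 was listed at 0 in Control mice 48 and 50 and at 0.0671, 0.214 and 0.379 FPKM in Control mice 41, 37 and 17. In the AOM/DSS mice 23, 30, 33, 44 and 52 it stood at 0.884, 2.47, 2.12, 4.90 and 3.37 FPKM. Every AOM/DSS mouse was above every Control mouse, and the log2 fold change was 1.64 ± 0.26 (SE, limma adjusted p = 0.00148). The AOM/DSS values rested on at least 11.5 estimated fragments per mouse. PZH mice 8, 14, 27, 46 and 53 had 0.218, 0.322, 0.160, 0 and 0.128 FPKM of Ccl3, a range like that of Control mice. PZH + AOM/DSS mice 2, 13, 15, 35 and 36 had 0.0843, 0.899, 0.776, 2.45 and 0.552 FPKM. Mouse 2 was within the Control range, mice 13 and 35 were within the AOM/DSS range, and mice 15 and 36 lay between the ranges.

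Ccl4 followed Ccl3. It was listed at 0 in Control mice 17, 37 and 50 and stood at 0.0779 and 0.283 FPKM in Control mice 41 and 48. The AOM/DSS mice had 1.43, 1.64, 1.54, 3.51 and 1.70 FPKM, which again did not overlap the Control mice (log2 fold change 1.43 ± 0.17, limma adjusted p = 0.000252). Both genes passed the filter on low values only through the AOM/DSS mice, since no Control mouse reached 0.5 FPKM. Without the filter, over 31007 genes of which 11.3% were called, both were still called (adjusted p = 0.00427 for Ccl3 and 0.000839 for Ccl4). Their fold changes on the log2(FPKM + 1) scale are compressed by the pseudocount, because the levels were low. In PZH mice Ccl4 was 0.0888 to 0.420 FPKM, and in PZH + AOM/DSS mice 2, 13, 15, 35 and 36 it was 0.440, 0.456, 0.739, 1.47 and 0.435 FPKM. Mouse 35 was the highest of its group for both genes and the only one within the AOM/DSS range of Ccl4.

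Ccl6 and Ccl9 are neighbours on chromosome 11 and encode chemokines known from the mouse that bind CCR1. Ccl6 was far above Ccl9 in every mouse. Ccl9 stood at 5.25, 5.16, 2.22, 3.18 and 3.83 FPKM in Control mice 17, 37, 41, 48 and 50. In the AOM/DSS mice it stood at 13.5, 5.59, 7.81, 9.63 and 9.25 FPKM. The groups did not overlap, although AOM/DSS mouse 30 was close to the highest Control mice. The mean rose from 3.93 ± 1.299 to 9.16 ± 2.92 FPKM (SD, n = 5), a ratio of 2.33, and the log2 fold change was 1.04 ± 0.24 (limma adjusted p = 0.0108). Ccl9 in PZH mice was 2.25 to 4.59 FPKM and in PZH + AOM/DSS mice 5.93, 4.95, 12.6, 5.85 and 4.94 FPKM, where mouse 15 stood apart from the other 4.

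Ccl6, in contrast, did not pass the test. It stood at 74.7, 182, 195, 171 and 72.1 FPKM in Control mice and at 179, 134, 150.2, 188 and 219.7 FPKM in AOM/DSS mice. Control mice 17 and 50 were the lowest of all 20 mice, and the other Control mice lay within the AOM/DSS range. The log2 fold change was 0.43 ± 0.30 (limma adjusted p = 0.341). PZH mice had 119.985 to 200.1 FPKM of Ccl6 and PZH + AOM/DSS mice 135 to 169.6 FPKM, so all groups overlapped.

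Ccl2 and Ccl7 encode ligands of CCR2, a receptor of monocytes. Ccl2 stood at 3.18, 2.77, 2.07, 1.59 and 0.491 FPKM in Control mice and at 21.5, 3.005, 3.68, 7.20 and 5.21 FPKM in AOM/DSS mice. Mouse 23 was far above the others, and mouse 30 was below the highest Control mouse. The mean ratio was 4.02 and the ratio of medians 2.52. The log2 fold change was 1.37 ± 0.45 (limma adjusted p = 0.0499), just under the threshold. It was 0.96 without mouse 23 (adjusted p = 0.0625), and the call was also lost without each of the Control mice 17, 37, 41, 48 and 50 and the AOM/DSS mice 44 and 52 in turn (adjusted p = 0.0551 to 0.107 over these 8).

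Ccl7 stood at 6.58, 3.23, 1.22, 1.36 and 2.18 FPKM in Control mice and at 16.6, 3.88, 4.92, 7.85 and 9.02 FPKM in AOM/DSS mice. The groups overlapped through Control mouse 17 and AOM/DSS mice 30 and 33. The log2 fold change was 1.28 ± 0.40 (limma adjusted p = 0.0423). Its call was lost without each of the Control mice 37, 41, 48 and 50 and the AOM/DSS mice 23, 44 and 52 (adjusted p = 0.0568 to 0.0943). In PZH mice Ccl2 was 0.750 to 2.97 FPKM and Ccl7 2.06 to 4.61 FPKM. In PZH + AOM/DSS mice 2, 13, 15, 35 and 36, Ccl2 was 3.20, 5.41, 4.66, 5.62 and 2.14 FPKM. In the same mice Ccl7 was 4.73, 5.39, 10.8, 6.502 and 5.62 FPKM, all above every PZH mouse.

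Ccl8 lies on chromosome 11 beyond Ccl2 and Ccl7 and encodes a chemokine that in the mouse acts on CCR8, a receptor of T cell subsets. It stood at 31.6, 47.2, 16.5, 19.8 and 29.9 FPKM in Control mice and at 10.2, 37.2, 50.1, 21.3 and 31.8 FPKM in AOM/DSS mice. The ranges overlapped throughout, with a log2 fold change of -0.03 ± 0.40 (limma adjusted p = 0.969). PZH mice had 45.5, 15.3, 24.2, 29.5 and 25.2 FPKM of Ccl8. PZH + AOM/DSS mice had 55.5, 51.6, 83.2, 33.6 and 48.4 FPKM, with a mean of 54.5 ± 18.1 FPKM (SD, n = 5), the highest mean of the 4 groups. Of these mice, 3 were above every mouse of the other groups.

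Ccl20, Ccl25 and Ccl28 are the chemokines best known from intestinal epithelium. Ccl28, whose product attracts plasma cells bearing CCR10, stood at 55.9, 60.4, 61.1, 73.4 and 52.2 FPKM in Control mice 17, 37, 41, 48 and 50. In the AOM/DSS mice it stood at 26.9, 36.1, 32.4, 28.0 and 27.05 FPKM, every one below every Control mouse. The mean fell from 60.6 ± 8.0 to 30.1 ± 4.0 FPKM (SD, n = 5), a ratio of 0.497, and the log2 fold change was -0.99 ± 0.12 (limma adjusted p = 0.000274). PZH mice had 78.4, 75.6, 70.6, 66.5 and 63.9 FPKM. PZH + AOM/DSS mice 2, 13, 15, 35 and 36 had 37.9, 38.1, 28.4, 22.6 and 63.0 FPKM, where mouse 36 alone was in the Control range and mouse 35 was the lowest of all 20 mice.

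Ccl20, the ligand of CCR6, stood at 2.78, 11.5, 10.9, 4.37 and 3.21 FPKM in Control mice and at 8.77, 10.7, 20.3, 7.93 and 18.8 FPKM in AOM/DSS mice. Control mice 37 and 41 lay within the AOM/DSS range. The log2 fold change of 1.02 ± 0.40 met the criteria of fold and unadjusted P but not the adjusted threshold (limma adjusted p = 0.0897). Without Control mouse 37 it was 1.25 (adjusted p = 0.0445), the only 1 of the 10 fits leaving out 1 mouse that passed (limma adjusted p = 0.0445 to 0.181). PZH mice had 3.004 to 9.61 FPKM and PZH + AOM/DSS mice 4.57 to 13.3 FPKM of Ccl20.

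Ccl25, the ligand of CCR9, which directs lymphocytes mainly to the small intestine, stood at 3.82, 2.89, 3.59, 3.74 and 5.09 FPKM in Control mice and at 1.32, 4.32, 2.58, 2.98 and 2.68 FPKM in AOM/DSS mice. AOM/DSS mouse 30 was above 4 of the 5 Control mice, and the log2 fold change was -0.39 ± 0.21 (limma adjusted p = 0.214). PZH mice had 4.05 to 6.20 FPKM and PZH + AOM/DSS mice 3.42, 4.90, 5.41, 4.89 and 4.75 FPKM. Its sum was spread over 10 transcripts, and the largest of them, with 28.9% of the gene, was a retained intron. Over the protein-coding transcripts alone, the group means were 1.45 FPKM in Control, 2.34 in PZH and 0.7002 in AOM/DSS mice, and 1.72 FPKM with AOM/DSS and PZH together. The rest of the sum came from transcripts annotated as not protein-coding. One coding transcript, ENSMUST00000127460, averaged 0.722 FPKM in Control and 0.927 in PZH mice but 0.138 in AOM/DSS mice and 0.154 FPKM with PZH added, while another, ENSMUST00000024004, averaged 0.442, 1.18, 0.407 and 1.38 FPKM in the same order. These single transcripts were not tested.

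The other genes were carried almost wholly by coding transcripts. Ccl3, Ccl4, Ccl7 and Ccl8 each had a single transcript. The main coding transcript made up 93.4% of Ccl2, 98.3% of Ccl6, 99.3% of Ccl9 and 96.9% of Ccl28. Ccl20 was split over 3 coding transcripts, with 56.3, 39.7 and 4.02% of the gene.

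**Figure D3:**
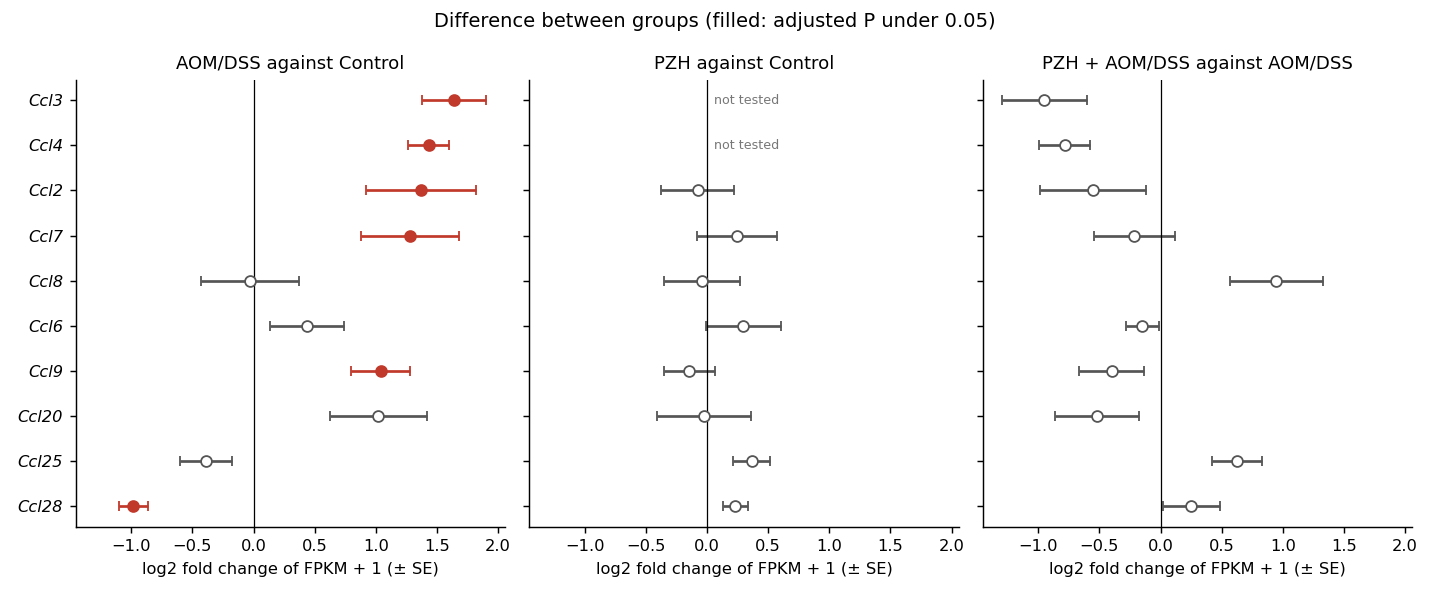
Points give the log2 fold change of FPKM + 1 (x axis) of each gene (y axis) with its SE in 3 comparisons, filled where the adjusted P is under 0.05. Filled points appear for 6 genes in AOM/DSS against Control and for none in PZH against Control or in PZH + AOM/DSS against AOM/DSS.

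PZH against Control addresses the effect of PZH in healthy colon. Of the 8 genes that passed the filter on low values, 0 passed the adjusted threshold (limma), where 0.00645% of all 15506 genes did. At an unadjusted P under 0.05, Ccl25 and Ccl28 were higher in PZH mice, and 4.34% of all genes were. Ccl28 differed by 0.23 ± 0.10 on the log2 scale (limma adjusted p = 0.564), with means of 60.6 and 71.0 FPKM. Ccl25 differed by 0.37 ± 0.15 (limma adjusted p = 0.545), with means of 3.83 and 5.20 FPKM. For both, PZH and Control mice overlapped. The adjusted p of the other 6 genes was 0.796 to 0.991. Ccl3 and Ccl4 had too low values to be tested here.

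PZH + AOM/DSS against AOM/DSS asks how PZH changes the diseased colon. In the 10 genes, 0 passed the adjusted threshold (limma), where 0.00629% of all 15888 genes did, and 0 met the criteria of fold and unadjusted P, where 2.4% of all genes did. This second count rests on the pseudocount, which compresses the fold of low genes. With a pseudocount of 0.1, Ccl3 and Ccl4 met these criteria, 2 of the 10 genes, where 4.37% of all genes did, and their mean FPKM was 0.3461 and 0.3615 times that with AOM/DSS alone. At an unadjusted P under 0.05, 4 genes differed, where 11.7% of all genes did. Ccl4 was lower by 0.79 ± 0.21 on the log2 scale (limma adjusted p = 0.356). Ccl3 was lower by 0.95 ± 0.34 (limma adjusted p = 0.363). On the other side, Ccl8 was higher by 0.95 ± 0.38 (limma adjusted p = 0.388) and Ccl25 by 0.63 ± 0.21 (limma adjusted p = 0.356). The values of both groups overlapped for all 10 genes. PZH + AOM/DSS mouse 35 was the one within the AOM/DSS range of Ccl4, and without it the difference of Ccl4 was -0.93 (limma adjusted p = 0.0252). This was the only 1 of the 10 fits leaving out 1 mouse that passed for Ccl4 (limma adjusted p = 0.0252 to 0.610). Without mouse 35, 807 of all 15888 genes passed the adjusted threshold, against 1 with it. Ccl2, Ccl7, Ccl9, Ccl20 and Ccl6 had lower and Ccl28 had higher fitted means, with log2 fold changes from -0.55 (Ccl2) to 0.25 (Ccl28) and adjusted p from 0.566 to 0.830. The median of the 10 genes was -0.31, against -0.04 over all genes.

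Mouse 35 also stood out in other genes. Its macrophage marker sum of 884 FPKM was the highest of all 20 mice. It had 70.3 FPKM of Slc26a3, a chloride exchanger of mature colonocytes, the lowest of its group, in which the others had 158 to 323 FPKM. Mouse 36, with the highest Ccl28 of its group, had the highest Slc26a3 of the group, 323 FPKM. Other colon epithelium genes did not follow this order. Mouse 36 had 380 FPKM of Car1 and 391 FPKM of Krt20, both below those of mice 2, 13 and 15. Its Muc2, at 1853 FPKM, was below that of mouse 15 only. What part these differences had in the chemokine values was not tested.

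PZH + AOM/DSS against Control and against PZH set the treated diseased mice beside healthy ones. These comparisons share the PZH + AOM/DSS mice with the one before. Against Control, 0 of 8 genes tested passed the adjusted threshold (limma), where 2.42% of all 15616 genes did. Ccl7 met the criteria of fold and unadjusted P (log2 fold change 1.07, limma adjusted p = 0.109), where 2.47% of all genes were higher by them. At an unadjusted P under 0.05, Ccl2, Ccl7, Ccl8 and Ccl9 were higher, where 12.9% of all genes were, and Ccl28 was lower, where 7.93% of all genes were. Ccl28 differed by -0.73 ± 0.23 (limma adjusted p = 0.111), and by -0.93 without mouse 36 (adjusted p = 0.0364). Without Control mouse 17, Ccl7 was higher by 1.34 (adjusted p = 0.0447). For each of these genes, this was the only 1 of the 10 fits leaving out 1 mouse that passed. Over these fits the limma adjusted p was 0.0364 to 0.241 for Ccl28 and 0.0447 to 0.239 for Ccl7. Ccl8 was higher by 0.92 (adjusted p = 0.113).

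Against PZH, 0 of 8 genes passed the adjusted threshold (limma), where 2.42% of all 15636 genes did. Ccl28 was the nearest, at -0.96 ± 0.22 (limma adjusted p = 0.0522), and at -1.16 without mouse 36 (adjusted p = 0.0189). This was the only 1 of the 10 fits leaving out 1 mouse that passed for Ccl28 (limma adjusted p = 0.0189 to 0.126). The Ccl28 values did not overlap, as for 2.37% of all genes that were lower. The margin was narrow, with 63.0 FPKM in PZH + AOM/DSS mouse 36 and 63.9 FPKM in PZH mouse 53. Ccl7 (0.82, adjusted p = 0.0854) and Ccl9 (0.78, adjusted p = 0.106) did not overlap either, as for 5% of all genes that were higher. For Ccl7 the nearest values were 4.73 FPKM in PZH + AOM/DSS mouse 2 and 4.61 FPKM in PZH mouse 8. For Ccl9 they were 4.94 FPKM in PZH + AOM/DSS mouse 36 and 4.59 FPKM in PZH mouse 8. At an unadjusted P under 0.05, 5 of the 8 genes differed, where 20.9% of all genes did. They were Ccl2, Ccl7, Ccl8, Ccl9 and Ccl28.

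Whether the AOM/DSS difference itself changed with PZH was tested as an interaction over all 20 mice. Of 8 genes tested, 0 reached an unadjusted P under 0.05 (limma), where 9.63% of all 15551 genes did. Of these, Ccl8 had the smallest P (0.99 ± 0.52 on the log2 scale, limma adjusted p = 0.554). Its AOM/DSS mean was 1.04 times the Control mean, and its PZH + AOM/DSS mean was 1.95 times the PZH mean. Ccl3 and Ccl4 were left out by the filter on low values. Without it, 2 of the 10 genes, Ccl3 and Ccl4, reached an unadjusted P under 0.05, where 7.69% of all 32991 genes did, and both had a smaller P than Ccl8. Their interactions were -0.92 for Ccl4 (limma adjusted p = 0.490) and -0.998 for Ccl3 (adjusted p = 0.572).

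The receptors of these ligands were examined as a list of 13 CC receptor genes, of which 10 could be tested in AOM/DSS against Control. Of these, 4 rose and 0 fell (limma, adjusted P under 0.05), where 16.4% of all genes rose and 7.23% fell. Ccr1, the receptor of CCL3, CCL6 and CCL9, stood at 2.06 to 3.69 FPKM in Control mice and at 9.06, 5.55, 8.23, 9.60 and 9.06 FPKM in AOM/DSS mice, with a log2 fold change of 1.22 (limma adjusted p = 0.000610). The groups did not overlap. Ccr7, which guides dendritic cells and lymphocytes, rose by 1.34 (limma adjusted p = 0.000803). Ccrl2, a receptor that does not signal, rose by 0.65 (limma adjusted p = 0.0146).

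Ccr9, the receptor of CCL25, rose by 0.56 on the log2 scale (limma adjusted p = 0.00284) at low level, from a mean of 0.214 to 0.799 FPKM, without overlap. No Control mouse reached 0.5 FPKM of Ccr9, so it passed the filter on low values only through the AOM/DSS mice. The ligand gene Ccl25 did not pass the test, as given above. Ccr10, the receptor of CCL28, was 2.67 FPKM in Control and 3.43 FPKM in AOM/DSS mice (0.28, limma adjusted p = 0.395). Ccr6, the receptor of CCL20, had a log2 fold change of 0.67 (limma adjusted p = 0.158) and Ccr2, the receptor of CCL2 and CCL7, of 0.21 (adjusted p = 0.514). In PZH + AOM/DSS against AOM/DSS, 0 receptor genes passed the adjusted threshold (limma), where 0.00629% of all genes did. There Ccr1 differed by -0.40 (limma adjusted p = 0.4996) and Ccr9 by -0.31 (adjusted p = 0.379).

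**Figure D4:**
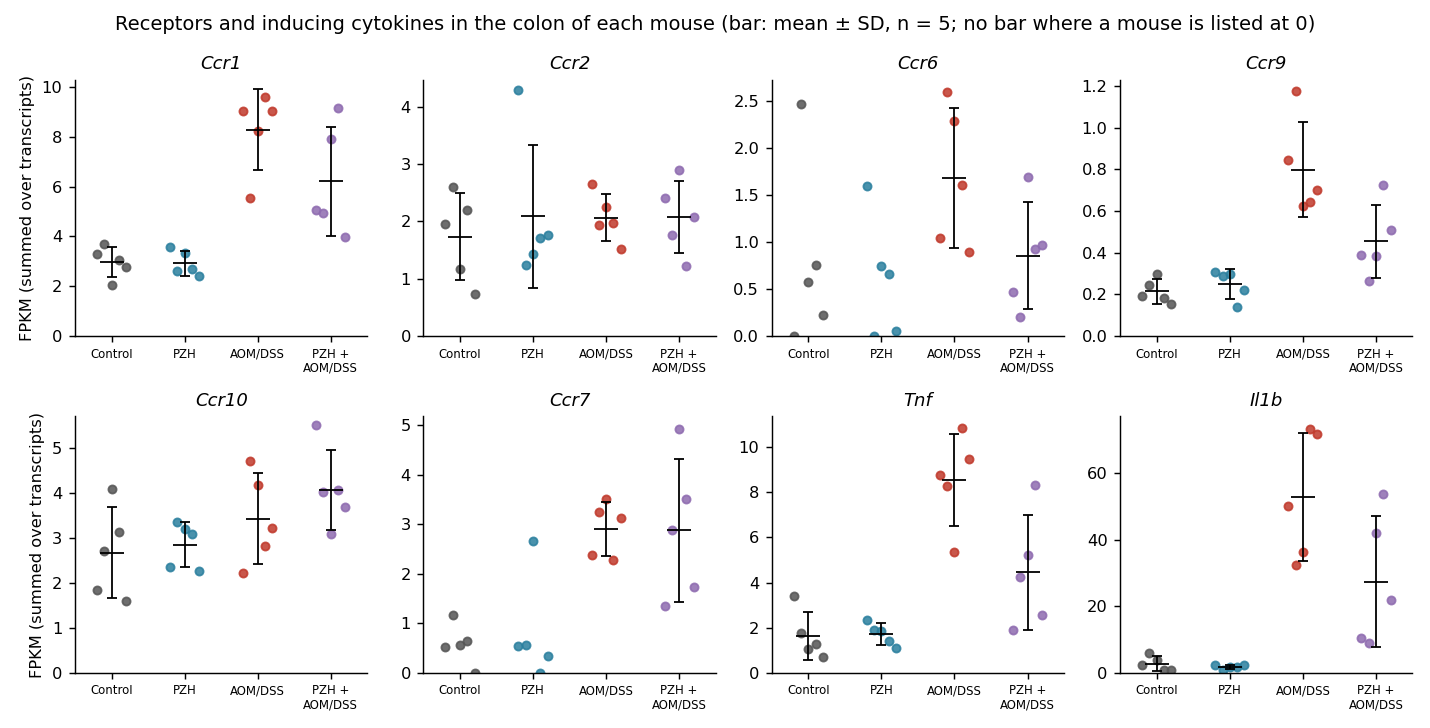
Panels give the FPKM (y axis, from 0) of receptor genes and of Tnf and Il1b in every mouse of the 4 groups (x axis), with bars at the mean ± SD of 5 mice and no bar where a mouse is listed at 0. AOM/DSS mice lie above all Control mice for Ccr1, Ccr9, Ccr7, Tnf and Il1b.

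Of 7 cytokine genes known to induce CC chemokines, 3 could be tested in AOM/DSS against Control, and all 3 rose without overlap. Of all genes tested, 16.4% rose at an adjusted P under 0.05 and 13% were higher without overlap. Only 1 Control mouse reached 0.5 FPKM of Il1a, so this gene passed the filter through the AOM/DSS mice. Il1b rose by 3.97 (limma adjusted p = 6.64e-05), Il1a by 2.20 (adjusted p = 9.09e-05) and Tnf by 1.91 (adjusted p = 0.000588) on the log2 scale. The mean of Tnf was 1.63 FPKM in Control and 1.71 FPKM in PZH mice. It was 8.55 FPKM with AOM/DSS alone and 4.45 FPKM with PZH added. Between both AOM/DSS groups, Tnf differed by -0.90 (limma adjusted p = 0.356) and Il1b by -1.17 (adjusted p = 0.398). Of the other CC chemokine genes, 12 entries were tested in AOM/DSS against Control, with copies of Ccl21a and of Ccl21b counted as separate entries. Of the 12 entries, 2 rose and 0 fell, a share near the 16.4% of all genes that rose. They were Ccl22, a ligand of CCR4 (1.38, limma adjusted p = 0.00128, no overlap), and Ccl11, the eosinophil chemokine eotaxin (1.16, adjusted p = 0.0427). The genes Ccl19, Ccl21a and Ccl21b have near-identical copies, so their values are uncertain.

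Markers of the cells that make or follow these chemokines moved in the same comparison. In AOM/DSS against Control, 6 of 15 macrophage and monocyte markers rose and 1 fell (limma, adjusted P under 0.05). By this rule, 16.4% of all genes rose and 7.23% fell, which holds beside each count below. The summed FPKM of the 15 markers was 355 to 667 in Control and 602 to 770 in AOM/DSS mice. Of the 7 of 10 neutrophil markers that passed the filter on low values, 6 rose. The summed FPKM of the whole neutrophil list was 81.1 to 399 in Control and 242 to 671 in AOM/DSS mice, which overlapped. Most of the Control sum was Ly6g, with a mean of 175.5 FPKM in Control and 104 FPKM in AOM/DSS mice (log2 fold change -0.58, limma adjusted p = 0.264). Without Ly6g, which was set aside after its high values in every group were seen, the sum was 0.257 to 30.6 FPKM in Control mice and 0.785 to 10.46 FPKM in PZH mice. It was 101 to 548 FPKM with AOM/DSS alone and 5.15 to 272 FPKM with PZH added. Of T and NK cell markers 7 of 10 rose, and of eosinophil and mast cell markers 7 of 7. Of B and plasma cell markers 3 of 8 rose and 0 fell, while Ccl28, whose product attracts plasma cells, fell. The sum of these 8 markers was 146 to 575 FPKM in Control and 78.5 to 2299 FPKM in AOM/DSS mice, which overlapped. In PZH against Control, only 2 neutrophil and 2 eosinophil and mast cell markers passed the filter. So did 8 T and NK cell and 7 B and plasma cell markers. The others of these lists that were tested in AOM/DSS against Control passed it only with the help of the AOM/DSS mice. They were higher there, so these counts lean towards a rise. Of 9 colon epithelium markers tested, 3 fell and 0 rose. These were Slc26a3 (-2.39), Car1 (-2.21) and Lgals4 (-0.63), while Cdh1, the epithelial cadherin, had means of 278 and 286 FPKM. Muc2, of the same list, went the other way, with means of 482 FPKM in Control and 877 FPKM in AOM/DSS mice and values that overlapped. The part of these cells in the rise of Ccl3, Ccl4 and Ccl9 and in the fall of Ccl28 was not tested.

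Follicle-associated epithelium is known as a site of Ccl20. The summed FPKM of its 6 markers was 9.64 to 13.5 in Control and 47.3 to 94.9 in AOM/DSS mice, without overlap. Most of this difference came from 1 gene, Tnfrsf11b, which encodes the secreted decoy receptor osteoprotegerin and had a mean of 1.27 FPKM in Control and 53.6 FPKM in AOM/DSS mice. Without it, a sum taken after its values were seen, the other 5 markers had 8.11 to 12.2 and 8.25 to 21.8 FPKM, which overlapped, as the Ccl20 values of these groups did. Of 5 markers tested, Tnfrsf11b and Gp2 rose and Scg5 fell (limma, adjusted P under 0.05), where 16.4% of all genes rose and 7.23% fell. In PZH against Control only 4 markers of this list passed the filter on low values. The 5 were thus reached only with the help of the AOM/DSS mice. Small intestinal epithelium, the main site of Ccl25, had 2 markers that could be tested, of which 0 passed the threshold.

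Among the 20 mice, deviations from the group means on the log2(FPKM + 1) scale were compared between genes, as a description. Ccl7 and Ccl9 were most like each other out of 15553 genes (Pearson r = 0.864, Spearman rho = 0.899, 20 mice). The next genes for Ccl7 were Fpr2, a receptor of neutrophils and macrophages (r = 0.859), and Ms4a6d (r = 0.845). Ccl2 went with Ccl7 (r = 0.713) and Ccl9 (r = 0.551), and Ccl3 with Ccl4 (r = 0.733), while Ccl2 and Ccl3 had r = -0.05. Ccl2, Ccl7 and Ccl9 thus deviated together, and so did Ccl3 and Ccl4. Mouse 23 was the highest of its group for Ccl2, Ccl7 and Ccl9 but the lowest for Ccl3 and Ccl4. Mice share the library and depth behind both values of a pair.

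**Figure D5:**
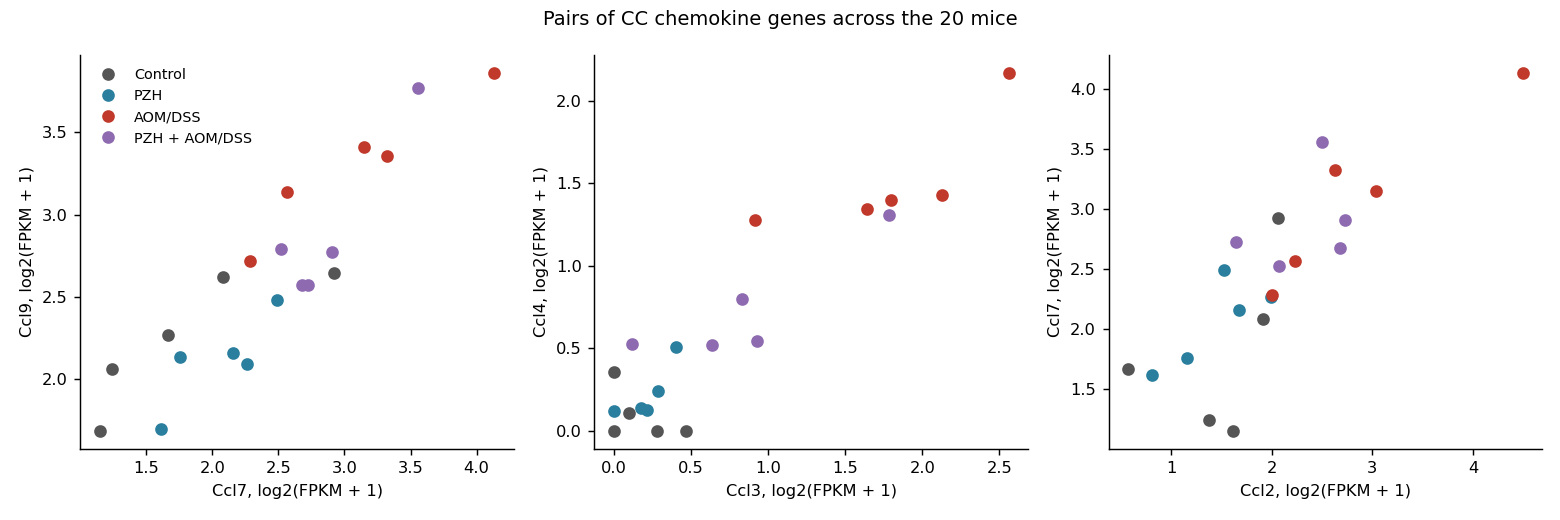
Each point is 1 of the 20 mice, coloured by group, with the log2(FPKM + 1) of 1 gene on each axis, for Ccl7 and Ccl9, Ccl3 and Ccl4, and Ccl2 and Ccl7. After group means were removed, r was 0.864, 0.733 and 0.713.

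For Ccl28 the most alike genes were Slc10a5 (r = 0.888), Slc2a13 (r = 0.853) and Casd1 (r = 0.847), and for Ccl6 they were Acad10 (r = 0.897), Cmtm8 (r = 0.877) and Bace2 (r = 0.876). Ccl8 was most like Nub1 (r = 0.844), Cd48, a leukocyte surface gene (r = 0.821), and Xaf1 (r = 0.803). Ccl20 was most like Ints10 (r = 0.769), Cd47 (r = 0.764) and Igkv8-24 (r = 0.752). For Ccl2 the list was Gm12435 (r = 0.816), Chil3, a macrophage gene (r = 0.771, rho = 0.517), and Cnot10 (r = 0.765). Without the 2 mice in which Ccl2 deviated most from its median, r was 0.746 for Gm12435, 0.584 for Chil3 and 0.570 for Cnot10. For Ccl25 it was Gm44164 (r = 0.845), Gm47694 (r = 0.832) and 4933431C10Rik (r = 0.817). Each list holds the highest r among 15553 genes, and the level that chance gives was not computed.

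Promoters from RefSeq (GRCm38.p6) matched 7 of the 10 genes, each with 250 bases before to 50 after the start. None was found for Ccl2, Ccl4 and Ccl7, which rose in AOM/DSS mice. The 7 genes had 8 promoters, so the counts below are of genes while the shares are of promoters. They were searched on both strands for the motif of NF-kB, a factor activated by TNF and IL-1, for the AP-1 motif TGANTCA and for TATAAA. NF-kB matches were found in 2 of the 7 genes, Ccl9 and Ccl20, against 8.46% of all 32851 promoters. AP-1 matches were found in Ccl9 and Ccl28, against 7.81%, and TATAAA in Ccl8, Ccl9 and Ccl25, against 13.6%. The promoters of Ccl3 and Ccl6 held none of these motifs. Of these genes, Ccl3 rose in AOM/DSS mice (log2 fold change 1.64), and Ccl28, with its AP-1 match, fell. Whether the motifs go with the changes was not tested. The 120 bases before the start are shown for Ccl9, which held all 3 motifs and rose in AOM/DSS mice, for Ccl20, which held an NF-kB match, and for Ccl8, which held neither an NF-kB nor an AP-1 match, with the matches in capitals.
Ccl9 (chr11:83578637-83578756, minus strand): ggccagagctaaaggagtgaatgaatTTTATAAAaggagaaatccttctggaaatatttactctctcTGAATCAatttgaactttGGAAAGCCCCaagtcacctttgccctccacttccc
Ccl20 (chr1:83116646-83116765, plus strand): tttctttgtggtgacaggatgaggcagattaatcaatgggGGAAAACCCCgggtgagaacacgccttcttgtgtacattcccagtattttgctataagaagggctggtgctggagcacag
Ccl8 (chr11:82115065-82115184, plus strand): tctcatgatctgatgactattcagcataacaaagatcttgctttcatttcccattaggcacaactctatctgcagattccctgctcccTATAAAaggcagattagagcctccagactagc
In Ccl9 the NF-kB match lay at 35 to 26 bases and the AP-1 match at 53 to 47 bases before the start, and the 2 TATAAA matches shown, 1 on each strand, overlapped each other. The NF-kB match of Ccl20 lay at 80 to 71 bases before the start. A match is a run of letters in these windows, and binding was not measured.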

How the data were processed

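Total RNA of mouse colon was depleted of rRNA and sequenced by the authors, whose pipeline used HISAT2 (mm10) and StringTie. For each mouse the authors deposited FPKM of 118434 transcripts, without counts or a named unit, so FPKM was inferred from the values. The authors' notes also name limma. Of 96182 Ensembl transcripts, 96032 were found in GENCODE M21 and summed per gene. The 22252 transcripts assembled from reads carry no gene name and were left out, with 12.1 to 14.8% of the FPKM.

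Depth was estimated from the steps of low values, of which 42.3 to 47.1% were whole (tolerance 0.02), so it limits precision only roughly. Groups were compared with limma 3.58.1 (R 4.3.3, intensity trend) on log2(FPKM + 1), over genes that reached 0.5 FPKM in 5 or more of 10 mice (10 of 20 for the interaction), with Benjamini-Hochberg adjustment over all genes tested. The fit was first tested on simulated data. Alternatives were median-of-ratios scaling, no filter, a mean of at least 1 FPKM, a pseudocount of 0.1, all 20 mice in 1 model, the most abundant transcript only, no trend, and leaving out each mouse.

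The 10 genes and all lists were chosen with earlier results of these data known. All 10 are named, and of other CC ligands, receptors and inducing cytokines those called in AOM/DSS against Control (at most 6 a list, the largest first). For each gene with a mean of at least 1 FPKM the 3 most alike genes are given. Of the remaining marker lists, AOM/DSS against Control called 1 of 4 dendritic cell, 2 of 5 endothelial and 2 of 6 fibroblast genes higher. It called 1 of 6 fibroblast genes, 6 of 6 smooth muscle genes and 3 of 5 neuron and glia genes lower. Of all genes tested there, 16.4% were called higher and 7.23% lower. Sequences came from GENCODE M21 and RefSeq. One receptor gene and 1 sequence are not reported here.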

Additional observations from a re-analysis of the deposited data

Results flagged for a closer look

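Within groups of 5 mice, single mice that stood apart by Dixon's test at the 95% level were found in 5 of 40 groups. The chance rate of about 1 in 20 holds for normally distributed values, whereas the test was run on FPKM without a log scale. All 5 were the highest of their group, so the count is not read as an excess over chance. Ccl2 was 21.5 FPKM in AOM/DSS mouse 23, against 3.005 to 7.20 FPKM in the others of the group. Ccl4 was 0.283 FPKM in Control mouse 48 (others 0 to 0.0779), 0.420 FPKM in PZH mouse 14 (others 0.0888 to 0.184) and 3.51 FPKM in AOM/DSS mouse 44 (others 1.43 to 1.70). The Control and PZH values of Ccl4 rest on few fragments. Ccl9 was 12.6 FPKM in PZH + AOM/DSS mouse 15, against 4.94 to 5.93 FPKM in the others. The causes were not tested.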

How the results depend on the processing

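In AOM/DSS against Control, Ccl3, Ccl4, Ccl9 and Ccl28 kept their direction and call under all 7 other settings and without each mouse. Ccl2 lost its call under 5 settings (adjusted p = 0.0502 to 0.0930) and Ccl7 under 3 (0.0575 to 0.0783). All 20 mice in 1 model gave 1 called gene in each of PZH + AOM/DSS against AOM/DSS (Ccl4), against Control (Ccl28) and against PZH (Ccl28), where the comparisons of 10 mice gave 0. A pseudocount of 0.1 gave 2, 2 and 1 genes by fold and unadjusted P in these comparisons, and median-of-ratios scaling gave 1 against PZH. With the most abundant transcript only, Ccl25 against PZH had the opposite sign (0.016). Over all genes, calls went from 1 to 89 with 20 mice and 807 without mouse 35 in PZH + AOM/DSS against AOM/DSS, from 378 to 1503 with 20 mice and 87 without mouse 15 against Control, from 378 to 1002 and, without PZH mouse 27, 52 against PZH, and from 2 to 286 without mouse 35 in the interaction. The causes were not tested.

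Leaving out each mouse gave 0 to 1 genes by adjusted P and 0 to 2 by fold and unadjusted P in the 3 comparisons of PZH + AOM/DSS mice, and 0 to 1 by the latter in the interaction. Log2 fold changes that changed sign ranged from -0.25 to 0.30 for Ccl8 in AOM/DSS against Control and from -0.42 to 0.047 for Ccl7 in PZH + AOM/DSS against AOM/DSS. Against PZH, Ccl6 ranged from -0.11 to 0.077. In PZH against Control, Ccl2 ranged from -0.31 to 0.078, Ccl8 from -0.23 to 0.15 and Ccl20 from -0.22 to 0.21. The interaction of Ccl28 ranged from -0.18 to 0.18. No paired analysis was possible because the groups share no mouse numbers. Ccl3 and Ccl4 rest on few fragments at this depth outside AOM/DSS mice, so their differences there are imprecise.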
